A study of Mus musculus with 6 samples.

Results

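The genes described are those of the mouse zinc finger families whose annotated symbol is Zfp followed by digits only, or begins with Zbtb or Hivep, with Zfp36, an mRNA-decay gene, left out. This gave 104 of the 10698 genes with a single symbol on the array, made up of 85 Zfp, 16 Zbtb and 3 Hivep genes. The members were chosen by symbol, but the families were selected on, and their rising members singled out from, the treated over untreated ratios themselves. Those ratios are therefore given as a description, and the adjusted p-values of the fit over all genes serve to say which members rose or fell.

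The arrays compared RNA of RAW 264.7 cells, a virus-transformed mouse macrophage line whose number the series title and some labels give differently, after 1 h with lipopolysaccharide (LPS, 100 ng/ml), a cell wall component of Gram-negative bacteria, and LPS-binding protein (LBP, 100 pM), with RNA of the same line left untreated for 1 h. Both RNAs were hybridised together on 6 dual-channel arrays, 3 with treated RNA in the dye Cy5 and 3 with treated RNA in Cy3, numbered as sets 1 to 3 in each orientation. Nothing in the labels tells if each set came from its own culture. The p-values thus cover the spread among these samples alone, which may be technical. Values are log2 ratios of treated over untreated RNA, so that 1 is a doubling, and each mean is given ± SD over 3 set averages (n = 3) of the 2 arrays that share a number. All signs assume deposited ratios of Cy5 over Cy3, which is likely because the Cy5 sample is the one labelled as test. Ratios hold no expression level, so the presence of macrophage markers could not be read from them. Of the macrophage markers 7 of 9 were tested and 1 rose (Adgre1, 0.55), of the lymphocyte markers 5 of 7 were tested and 2 rose (Cd4, 0.47, and Cd79a, 0.20), and of the fibroblast and epithelial markers 1 of 7 was tested and did not pass. The part of these markers in the results was not tested.

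Most Zfp genes encode proteins with arrays of C2H2 zinc fingers, each finger folding around a zinc ion and contacting a few bases of DNA. Many of them carry a KRAB domain, which recruits the corepressor Trim28 and the histone methyltransferase Setdb1, and they are best known for silencing transposable elements. Zbtb proteins join C2H2 fingers to a BTB (or POZ) domain, which pairs the proteins and recruits corepressors such as Ncor1 and Bcor, and several steer the development of blood cells. The Hivep proteins are very large zinc finger proteins that bind kappaB-like DNA sequences. A symbol is no proof of such a function. Zbtb8os, named for its place opposite Zbtb8, encodes a factor of tRNA ligation, Zfp185 encodes a LIM domain protein, and Zfp346 encodes a protein that binds double-stranded RNA. Protein domains were not analysed here, so the label of repressors was not checked for single members.

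After 1 h of LPS and LBP 46 of the 70 tested Zfp genes had a mean below 0, as did 4480 of all 8331 genes tested. Among the Zfp genes the falls outnumbered the rises. Of the 104 members, 87 had a ratio on all 6 arrays and entered the fit, 70 of them Zfp, 15 Zbtb and 2 Hivep. Among these 70 Zfp genes 25 fell, 6 rose and 39 did not pass (limma, adjusted p under 0.05), while among the 17 Zbtb and Hivep genes 2 fell, 4 rose and 11 did not pass. Over all 8331 genes tested, 6.21% fell and 6.96% rose, or 13.2% in either direction. Without set 1, 3 Zfp genes and 1 Zbtb or Hivep gene rose, against 3.55% of all genes. The median ratio was -0.10 for Zfp, 0.06 for Zbtb and Hivep, and -0.01 for all genes tested. The lower and upper quartiles were -0.35 and 0.09 for Zfp, -0.05 and 0.17 for Zbtb and Hivep, and -0.07 and 0.06 for all genes. In the fit 0 of 87 members and 88 of all 8331 genes tested reached a 2-fold change. That share of all genes is too small for the 0 to set the members apart. In such bulk RNA fewer cells with a transcript and less of it per cell cannot be told apart.

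**Figure D1:**
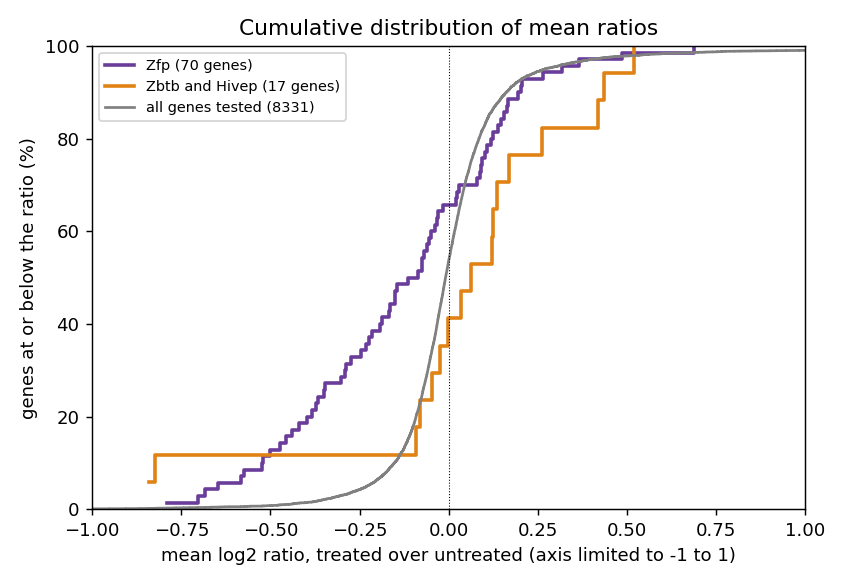
Cumulative share of genes (vertical axis, percent) at or below a mean log2 ratio of treated over untreated RNA (horizontal axis, limited to -1 to 1) for 70 Zfp genes, 17 Zbtb and Hivep genes and all 8331 genes tested. The Zfp line lies above that of all genes left of 0, with its median at -0.10, and the Zbtb and Hivep line crosses 50% at 0.06.

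The Zfp median was also the lower of the pair on single arrays. With treated RNA in Cy5 the Zfp median was -0.09, -0.13 and -0.15 in sets 1, 2 and 3, and with treated RNA in Cy3 it was -0.08, -0.09 and -0.07. The Zbtb and Hivep median was -0.0013, 0.04 and 0.06 in Cy5 and 0.16, 0.06 and 0.16 in Cy3. On each of the 6 arrays between 40 and 47 of the 70 Zfp genes were below 0. The median of all genes lay between -0.0098 and 0.0025, and their share below 0 was not counted by array. The Zbtb and Hivep median lay above that of all genes on 5 of them, the Cy5 array of set 1 (0.0025 for all genes) being the exception. The values of 23 Zfp genes were below 0 on all 6 arrays, and those of 10 were above 0 on all 6. For the Zbtb and Hivep genes these numbers were 2 and 4, and over all genes 9.11% were below 0 and 10% above 0 throughout.

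Among the members in the fit the steepest falls were those of Hivep2 and Zbtb1, both outside the Zfp group. Zfp398, a Zfp gene with an incomplete set of ratios, had a fall of similar size and is given with the genes outside the fit. Hivep2, also known as Schnurri-2, was at -0.77, -1.28 and -1.08 with treated RNA in Cy5 and at -0.53, -0.54 and -0.84 with treated RNA in Cy3. It fell by 0.84 ± 0.16, or 1.79-fold (limma, adjusted p = 0.000717), and all 6 arrays lay at -0.53 or lower. Zbtb1, which mice need for lymphocyte development, was at -0.94, -0.87 and -1.07 in Cy5 and at -0.58, -0.58 and -0.89 in Cy3. It fell by 0.82 ± 0.14, or 1.77-fold, at -0.58 or lower on every array.

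Hivep1, a relative of Hivep2, moved the other way. On the Cy5 arrays it was at 0.53, 0.46 and 0.82, and on the Cy3 arrays (named for the dye of the treated RNA) at 0.45, 0.20 and 0.65, all above 0. It rose by 0.52 ± 0.20, or 1.43-fold (limma, adjusted p = 0.00863), but did not pass without set 1 (0.53) or on the Cy3 arrays alone (0.43). Hivep3, known as Schnurri-3 and as a regulator of bone formation, lacked the set 2 ratio in Cy5. It was at 0.16 and 0.33 on the other Cy5 arrays and at 0.25, 0.46 and 0.40 in Cy3, so its 5 ratios were all positive, with a mean of 0.29 over the 2 complete sets (limma with incomplete probes, adjusted p = 0.0557).

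The promoter windows of the pair that moved in opposite directions are shown because the proteins are known to bind kappaB-like DNA and each window holds 1 match to the kappaB consensus, in capitals. RefSeq (GRCm38.p6) gives 1 window for each gene, from 250 bases before the start to 50 after it, at chr10:13966129-13966428 for Hivep2 and chr13:42051771-42052070 for Hivep1, both on the plus strand. GC content was 75.3% for Hivep2 and 87.0% for Hivep1, against a median of 52.7% for all windows. The window of Hivep3, not shown, had a GC content of 44.3% and 0 matches.
Hivep2: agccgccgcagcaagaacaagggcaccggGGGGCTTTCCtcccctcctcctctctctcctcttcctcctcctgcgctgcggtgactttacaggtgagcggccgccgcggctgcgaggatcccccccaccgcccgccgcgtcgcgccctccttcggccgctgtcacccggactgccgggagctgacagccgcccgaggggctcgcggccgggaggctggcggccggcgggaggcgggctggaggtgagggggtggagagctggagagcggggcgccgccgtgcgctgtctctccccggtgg
Hivep1: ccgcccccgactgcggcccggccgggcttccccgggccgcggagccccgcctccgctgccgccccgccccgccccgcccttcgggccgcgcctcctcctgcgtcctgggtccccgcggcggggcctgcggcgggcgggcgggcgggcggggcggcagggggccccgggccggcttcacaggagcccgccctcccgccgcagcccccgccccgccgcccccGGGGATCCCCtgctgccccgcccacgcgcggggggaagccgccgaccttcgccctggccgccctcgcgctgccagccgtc
The match began 221 bases before the start in Hivep2 and 30 bases before it in Hivep1. Such a match, on either strand, is held by 5 of the 25 windows of Zbtb and Hivep genes and by 8.46% of all 32851 windows. These windows were not matched for GC content. The match is a description of the letters and no evidence of binding.

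Among the Zbtb genes 3 rose. Zbtb43 was at 0.30, 0.04 and 0.55 with treated RNA in Cy5 and at 0.55, 0.53 and 0.64 with treated RNA in Cy3. It rose by 0.43 ± 0.15, with the set 2 array in Cy5 near 0. Zbtb22 was at 0.36, 0.51 and 0.42 in Cy5 and at 0.46, 0.29 and 0.48 in Cy3, and rose by 0.42 ± 0.03 (limma, adjusted p = 0.00148), with all arrays close together. Zbtb20, a repressor that in mouse macrophages is known to restrain transcription of the NF-kappaB inhibitor gene Nfkbia, was at 0.17, 0.20 and 0.28 in Cy5 and at 0.35, 0.25 and 0.33 in Cy3. It rose by 0.26 ± 0.04. Without set 1, neither Zbtb43 (0.44) nor Zbtb20 (0.26) passed, nor did they on the Cy5 arrays alone (0.30 and 0.21).

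The remaining 11 Zbtb genes of the fit did not pass and had means between -0.09 and 0.17. Zbtb17 (Miz-1, a partner of Myc) had the highest of these, 0.17 ± 0.10. Zbtb7a, a repressor known from blood cell development, averaged 0.12 ± 0.15, and Zbtb32, a repressor in lymphocytes, averaged 0.12 ± 0.17. Zbtb46, a marker of classical dendritic cells, averaged -0.0028 ± 0.06, and Zbtb16 (PLZF), which directs innate-like T cells, averaged 0.06 ± 0.14. Kaiso and its relative, which bind methylated DNA, are encoded by Zbtb33 (0.03 ± 0.06) and Zbtb4 (-0.09 ± 0.04). Zbtb14 was outside the fit, with ratios on 4 arrays, of -0.38, -0.15, -0.45 and -0.50. Missing the threshold does not show that these genes stayed level.

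Of the Zfp genes that fell, 4 did so by 1.5-fold or more, as did Hivep2 and Zbtb1. These 6 members were among the 46 genes of the whole fit (0.552%) with a fall of that size. Zfp958 was at -0.93, -1.39 and -0.91 with treated RNA in Cy5 and at -0.54, -0.29 and -0.69 with treated RNA in Cy3, and fell by 0.79 ± 0.05, or 1.73-fold (limma, adjusted p = 0.000141). Zfp40 was at -1.13, -0.69 and -1.0 in Cy5 and at -0.49, -0.22 and -0.68 in Cy3, and fell by 0.70 ± 0.22. In both genes each Cy5 ratio was lower than every Cy3 ratio, and Zfp40 did not pass on the Cy3 arrays alone (-0.46). They were not alone in this separation of orientations. It also held for Zfp53 and, among the smaller falls, for Zfp1, Zfp788, Zfp101, Zfp120, Zfp109, Zfp612, Zfp386 and Zfp97. In Zfp108 and Zfp235 each Cy3 ratio was the lower.

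Zfp53 was at -0.70, -1.15 and -0.85 in Cy5 and at -0.41, -0.32 and -0.67 in Cy3, and fell by 0.68 ± 0.11. Zfp248 was the most even of the 4, at -0.64, -0.60 and -0.61 in Cy5 and at -0.78, -0.61 and -0.64 in Cy3, and fell by 0.65 ± 0.06, or 1.57-fold. Its orientations overlapped. Next came Zfp90 (-0.58 ± 0.12), Zfp87 (-0.57 ± 0.11), Zfp810 (-0.52 ± 0.08), Zfp788 (-0.52 ± 0.04) and Zfp1 (-0.50 ± 0.09), all below 0 on every array. Zfp1 did not pass on the Cy3 arrays alone (-0.34).

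Zfp287 fell by 0.46 ± 0.12, Zfp101 by 0.44 ± 0.06 and Zfp120 by 0.42 ± 0.02. Zfp346, the gene of the double-stranded RNA binding protein, fell by 0.38 ± 0.09 and did not pass on the Cy5 arrays alone (-0.30). The smaller falls included Zfp386 (-0.27 ± 0.02), Zfp54 (-0.29 ± 0.13) and Zfp2 (-0.29 ± 0.13), which were named after their values were seen. Of Zfp2, the set 1 array in Cy5 stood at 0.16 and the other arrays between -0.47 and -0.22. For Zfp101 a second probe was listed at 0 on all arrays, and its value comes from 1 probe.

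**Figure D2:**
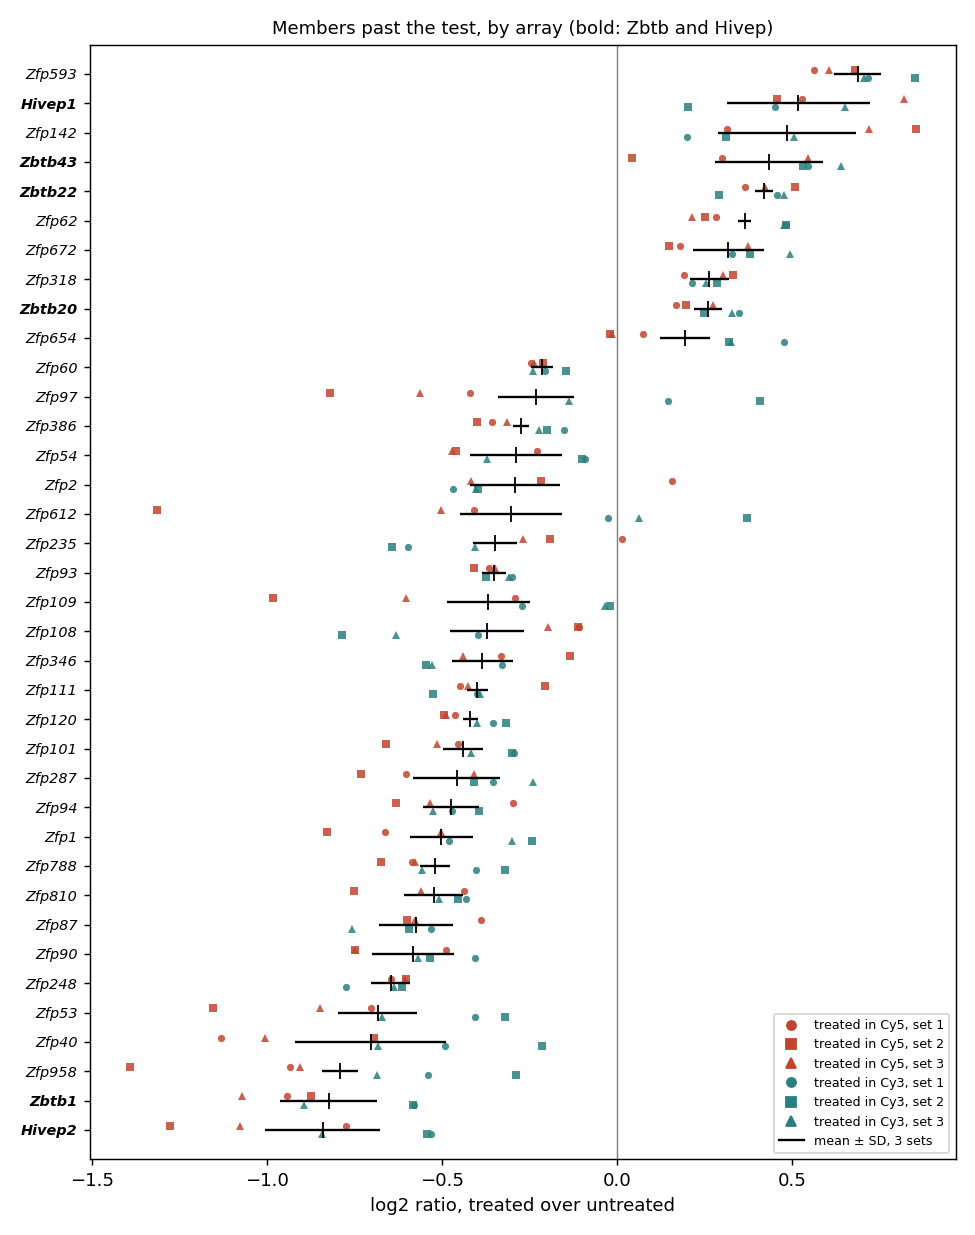
Log2 ratio of treated over untreated RNA (horizontal axis) for the 37 members past the test, with 1 point for each array, coloured by the dye of the treated RNA and shaped by set, and a bar for the mean ± SD over 3 sets. The 10 members that rose stand above the 27 that fell. The points of Zfp612 and Zfp97 cross 0 between orientations.

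Of these 37 members, 32 had the same sign on all 6 arrays. The other 5 were Zfp654 among the rises and Zfp97, Zfp612, Zfp2 and Zfp235 among the falls. Zfp612 was at -0.41, -1.31 and -0.50 with treated RNA in Cy5 and at -0.03, 0.37 and 0.06 with treated RNA in Cy3, and averaged -0.30 ± 0.15. Zfp97 was at -0.42, -0.82 and -0.56 in Cy5 and at 0.15, 0.41 and -0.14 in Cy3, and averaged -0.23 ± 0.11. Both passed the test on set averages (adjusted p = 0.0271 and 0.0397, limma), yet their Cy3 means were positive, 0.14 for each, and neither passed when the 6 arrays were fitted as separate replicates. Their falls therefore rest on averaging orientations that disagree in sign.

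Runs of neighbouring genes could be followed with the RefSeq gene order of GRCm38.p6. Members whose starts lie within 100 kb of the next formed 7 runs, which held 21 genes, all Zfp. The longest run has 7 genes in the order Zfp112, Zfp235, Zfp111, Zfp109, Zfp108, Zfp93 and Zfp94, and 6 of them fell. Zfp94 fell by 0.47 ± 0.08, Zfp111 by 0.40 ± 0.03, Zfp108 by 0.37 ± 0.10, Zfp109 by 0.37 ± 0.12, Zfp93 by 0.35 ± 0.04 and Zfp235 by 0.35 ± 0.06. The means of these 6, grouped because they passed, lie close together, but single arrays spread wider. Those of Zfp235, for example, ran from -0.64 to 0.02. The mean of the seventh gene, Zfp112, was -0.06 ± 0.04 and did not pass. Orientations differed in size for some of them, though no dye effect on a member passed the test. Zfp108 was at -0.11, -0.11 and -0.20 with treated RNA in Cy5 and at -0.40, -0.79 and -0.63 with treated RNA in Cy3, and did not pass on the Cy5 arrays alone (-0.14). Zfp109 was at -0.29, -0.98 and -0.60 in Cy5 and at -0.27, -0.02 and -0.04 in Cy3, and did not pass on the Cy3 arrays alone (-0.11). These neighbours thus leaned to opposite orientations. Probe sequences were not used here, so signal shared between related family members cannot be separated.

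The letters around a shared motif are shown because 6 of the 7 genes of this run hold it before their start, followed by its matches in 3 other members. The motif, CTGGGANNNGTAGT, has 6 fixed letters, 3 open positions and 5 fixed letters, a form chosen after the windows had been read. Among all patterns of that form it was the one held by most genes of the run, 6, and it was then searched on both strands of all windows. It is part of a longer sequence known to be bound by the zinc finger protein Zfp143 and its human relative. Each excerpt is read on the strand that carries the letters, with the motif in capitals, from RefSeq windows of GRCm38.p6.
Zfp112, chr7:24112161-24112190, plus strand: tgaaaattCTGGGAAATGTAGTtcatgacc
Zfp112, chr7:24112343-24112369, plus strand: cgggaattCTGGGAAGTGTAGTcctgg
Zfp111, chr7:24208194-24208223, minus strand: ttagcattCTGGGAAATGTAGTcccaaaag
Zfp109, chr7:24237704-24237733, minus strand: gacgcattCTGGGAACTGTAGTtccggcgc
Zfp108, chr7:24254660-24254689, plus strand: ttctcgttCTGGGAAATGTAGTcccagaaa
Zfp108, chr7:24254716-24254745, plus strand: gaggcattCTGGGAATTGTAGTtctggagc
Zfp93, chr7:24270336-24270365, plus strand: gaggaattCTGGGAATTGTAGTtccaacgc
Zfp94, chr7:24316670-24316699, minus strand: cgagcattCTGGGAAGCGTAGTtcaaattc
Zfp28, chr7:6383165-6383194, minus strand: aaggccccCTGGGAAGTGTAGTccccagcg
Zfp60, chr7:27731336-27731365, minus strand: ggtagcccCTGGGAAATGTAGTgccgagtg
Zfp84, chr7:29768519-29768548, plus strand: accgccttCTGGGAAATGTAGTccactata
In the run, each match lay on the strand of its gene, and the first of each gene began between 151 and 25 bases before the start. Zfp235 had a window without a match, and Zfp112, whose ratio did not pass, had 2 matches.

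Across the 86 members with a window, 9 genes held the motif, of which 6 fell, 0 rose, 2 did not pass and 1 was outside the fit. Only 20 of the 25 Zfp genes that fell and 4 of the 6 that rose had a window. Zfp40, Zfp248 and Zfp593 were among those without one, and some genes, such as Zfp672, had several. The shares below cover these windows alone. Because the motif was picked from a run in which 6 of 7 genes fell, its share among falling genes was largely fixed by that choice, and 5 of the 6 falling holders belong to the run. Outside the run it was held by 1 of 20 windows of Zfp genes that fell (Zfp60), 0 of 7 of those that rose and 1 of 35 of those that did not pass (Zfp84), against 1.21% of all windows. The median GC content was 54% for windows of Zfp genes that fell, 64.7% for those that rose and 64.2% for those that did not pass, against 52.7% for all windows. No match to the CArG, CRE or EGR consensus occurred in the 27 windows of Zfp genes that fell or the 7 of those that rose. Of all windows 1.63%, 1.79% and 2.91% hold one. These shares are too small for the absence in so few windows to set the members apart. AP-1 (TGANTCA) occurred in 1 of the 27 windows (3.70%) and in 1 of the 7 (14.3%), a window of Zfp672, against 7.81% of all windows. The kappaB consensus was found in 7.41% of the windows of Zfp genes that fell, in 0 of the 7 windows of those that rose and in 16.7% of those that did not pass, against 8.46% of all windows.

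**Figure D3:**
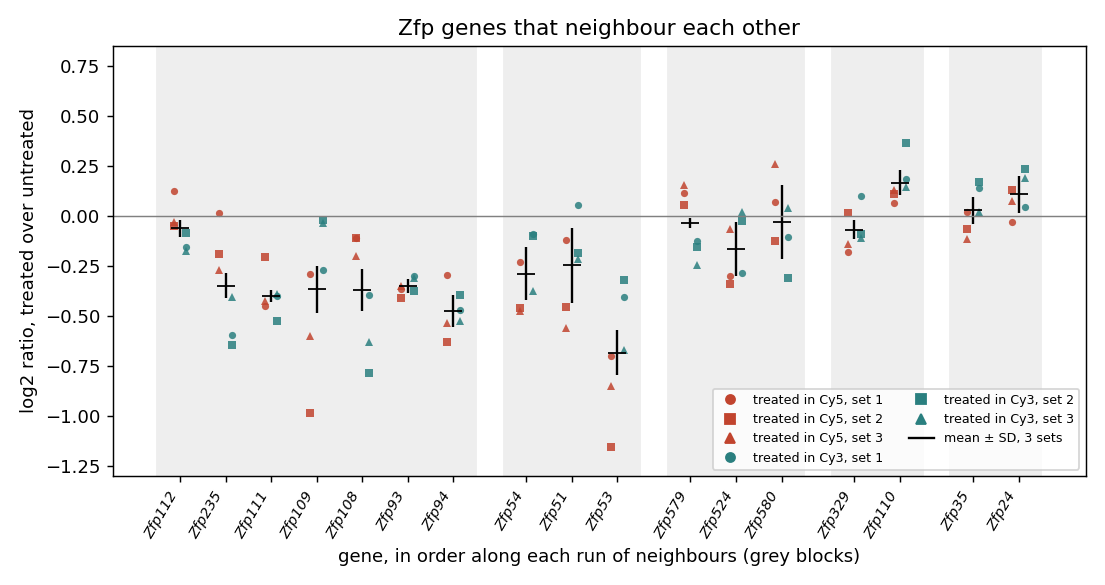
Log2 ratio of treated over untreated RNA (vertical axis) for tested Zfp genes in 5 runs of neighbours, in their order along the chromosome, with 1 point for each array and a bar for the mean ± SD over 3 sets. The first run holds 6 genes that fell, between -0.35 and -0.47, and Zfp112 at -0.06, while the runs from Zfp579, Zfp329 and Zfp35 hold no gene past the test.

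The second run, of Zfp54, Zfp51 and Zfp53, held 2 genes that fell and Zfp51, which averaged -0.25 ± 0.19 and did not pass. The run of Zfp579, Zfp524 and Zfp580 had means between -0.17 and -0.03 and none that passed. Zfp329 and Zfp110, and Zfp35 and Zfp24, also held none. Of the 19 tested Zfp genes in such runs 8 fell and 0 rose, and of the 51 others 17 fell and 6 rose, where 6.21% of all genes fell and 6.96% rose. Zfp60, which belongs to none of them, showed how probes of 1 gene can disagree. Its mean of -0.21 ± 0.03 passed, but one probe averaged -0.44 and passed while the other averaged 0.01 and did not.

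The 6 Zfp genes that rose began with Zfp593, a relative of a yeast factor of ribosome export. It was at 0.56, 0.68 and 0.61 with treated RNA in Cy5 and at 0.72, 0.85 and 0.71 with treated RNA in Cy3. It rose by 0.69 ± 0.07, or 1.61-fold (limma, adjusted p = 0.000308), and was the only member that rose by 1.5-fold or more. Of all genes tested 1.74% did so.

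Zfp142 was at 0.32, 0.85 and 0.72 in Cy5 and at 0.20, 0.31 and 0.50 in Cy3. It rose by 0.48 ± 0.20 and did not pass on the Cy3 arrays alone (0.34). Zfp62 was at 0.28, 0.25 and 0.21 in Cy5 and at 0.48, 0.48 and 0.48 in Cy3, and rose by 0.36 ± 0.02. Here the orientations did not overlap, though both were above 0.

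Zfp672 rose by 0.32 ± 0.10 and Zfp318, which in B cells governs the expression of IgD, rose by 0.26 ± 0.06, with probes at 0.27 and 0.26 that both passed. Neither passed without set 1, at 0.35 and 0.29, nor did Zfp672 on the Cy5 arrays alone (0.23) or Zfp318 on the Cy3 arrays alone (0.25). Zfp654 averaged 0.19 ± 0.07 and lay just inside the threshold (adjusted p = 0.0434, limma). Its Cy5 arrays were at 0.07, -0.02 and -0.02 and its Cy3 arrays at 0.48, 0.32 and 0.32, so the rise came from the Cy3 arrays. It did not pass with any set left out (0.15, 0.21 and 0.21).

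Next to the threshold, Zfp612 (adjusted p = 0.0271, limma) and Zfp97 (0.0397) were the falls just inside it, and Zfp423 (-0.15 ± 0.04, adjusted p = 0.0664), a regulator of fat cell formation, and Zfp64 (-0.22 ± 0.14, adjusted p = 0.0694) were just outside. On the upper side Zfp654 and Zfp318 were inside, and Zfp110 (0.17 ± 0.06, adjusted p = 0.0613) and Zfp146 (0.20 ± 0.12, adjusted p = 0.0668) were outside. Zfp110, which encodes a partner of a neurotrophin receptor, had probes at 0.18 and 0.15. The 39 Zfp genes that did not pass had means between -0.25 and 0.21.

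A further 15 Zfp genes lacked a ratio on at least 1 array and were left out of the fit. The clearest of them was Zfp398, at -0.86, -0.86 and -0.81 with treated RNA in Cy5 and at -0.78 and -0.98 in sets 1 and 3 with treated RNA in Cy3. Its mean over 2 complete sets was -0.86 ± 0.05 (limma with incomplete probes, adjusted p = 0.000786). Over the same sets, 1 and 3, Zbtb1 averaged -0.87 and Hivep2 averaged -0.81. Zfp239 (-0.23 ± 0.01) and Zfp276 (-0.16 ± 0.02) were negative on all 5 arrays with a ratio and did not pass. Their means and SDs, like those of Zfp398, come from only 2 set averages each. Zfp30, Zfp42 (Rex1, a marker of pluripotent cells) and Zfp57 (known for keeping genomic imprints) had ratios of both signs. Zfp28 and Zfp773 were measured on 1 array each. No member outside the fit reached a 2-fold change over its complete sets.

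Dye effects on the members were tested on the averages of unturned arrays, a measure the choice of members did not use. Of the 87 members 0 passed (limma, adjusted p under 0.05), against 0.06% of all genes. The median dye effect, as log2 of Cy5 over Cy3, was -0.06 for the Zfp genes and -0.03 for Zbtb and Hivep. For all genes it was 6.1e-05, so the Zfp genes leaned to Cy3 as a group. At an unadjusted p under 0.05, 30 members and 27.8% of all genes stood out. Both shares are above what that threshold passes when no gene has an effect. Missing the adjusted test therefore does not show that the members were free of dye effects. The means of both orientations had opposite signs for 23 members, 18 of them Zfp, and for 4250 of all genes.

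**Figure D4:**
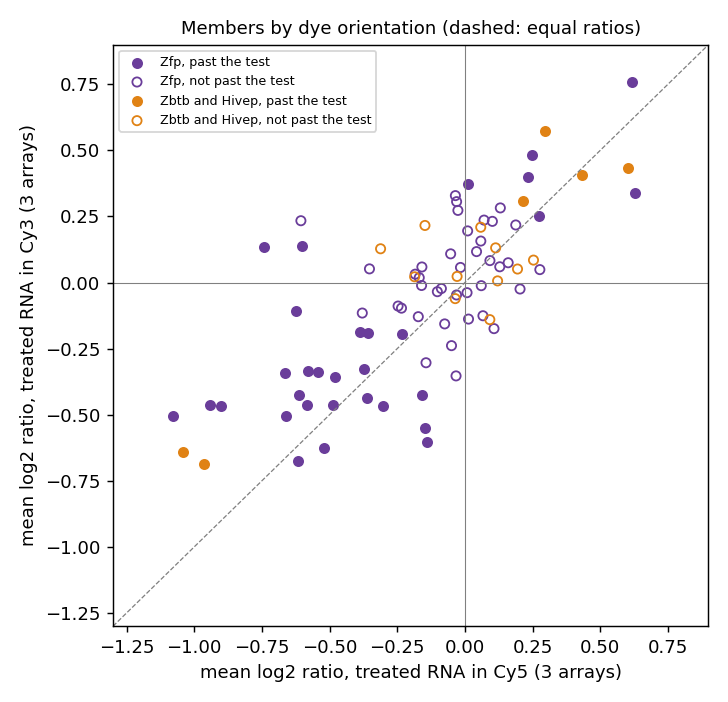
Mean log2 ratio of treated over untreated RNA over 3 arrays with treated RNA in Cy5 (horizontal axis) and over 3 arrays with treated RNA in Cy3 (vertical axis), with 1 point for each of 87 members, filled where the member passed the test. Most filled points lie in the quadrants where both orientations have the same sign, and Zfp612 and Zfp97 are the filled points at upper left.

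The corepressors through which KRAB and BTB proteins act were examined as a list. Of 31 genes, 20 were on the array and tested, and 0 passed in either direction by limma at an adjusted p under 0.05, whereas 6 had an unadjusted p under 0.05. Of all genes 13.2% passed, and 27% had an unadjusted p under 0.05. Their median ratio was 0.02, against -0.01 for all genes, and their means ran from -0.13 to 0.24. Trim28 was at -0.01, 0.18 and 0.0063 with treated RNA in Cy5 and at -0.09, -0.25 and 0.06 with treated RNA in Cy3, and averaged -0.02 ± 0.04. Setdb1 averaged -0.13 ± 0.03. Of the BTB zinc finger genes that carry other symbols, 4 of 6 were tested and Bcl6, a repressor of inflammatory and germinal centre genes, rose. It was at 0.48, 0.44 and 0.67 in Cy5 and at 0.54, 0.44 and 0.73 in Cy3, a rise of 0.55 ± 0.13 (limma, adjusted p = 0.00242). Bcl6b, Hic1 and Patz1 did not pass, at 0.14, 0.10 and -0.06.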

How the data were processed

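Ratios of treated over untreated RNA were measured on 6 dual-channel arrays of 16281 probes. The deposited values are log2 ratios, already normalised by the authors in a way not given in the sources used here. Base 2 was inferred from the values, of which 99.6% to 99.8% per array, read as log2 and converted to log10, are numbers of at most 6 digits (relative tolerance 1e-13), against 0% when read as log10 or natural log. Cy5 over Cy3 is the likely direction, from which sample is labelled as test. Per array, between 8.99% and 23.9% of values were exactly 0 and were treated as missing, and the sign was turned (a factor of -1) on arrays whose Cy3 channel held the treated RNA. Medians per array lay between -0.0078 and 0.0159. As deposited, arrays of the same orientation correlated at 0.596 to 0.805 and those of opposite orientation at -0.633 to -0.145. The number of arrays limits the precision.

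Gene names came from the platform annotation, in which 13738 probes had 1 symbol, 52 several and 2491 none, and 13694 were found by gene ID in RefSeq. Probes of a gene were averaged. Arrays sharing a set number were averaged, as a possible dye swap of the same RNAs, and limma 3.58.1 (R 4.3.3) tested the mean of 3 such averages against 0, with Benjamini-Hochberg adjustment over 8331 genes, at an adjusted p under 0.05. Deviations of arrays with the same number did not go together (r = 0.00556, -0.258 and -0.0636), so the numbers do not show pairing, and the SD of averages can be smaller than that of single arrays. The fit was tested on simulated data, with noise drawn separately for each array. That simulation cannot show whether arrays with the same number share RNA. The members and lists were chosen with earlier results of these data known. The genes named are all members past the test up to 20 in each direction by size, every Hivep gene, the 2 nearest the threshold on each side, Bcl6 and Trim28. Other names were added after their values were seen. Alternatives left out a set, used 1 orientation, 6 separate arrays, incomplete probes, zeros as ratios, another normalization, single probes or a threshold of 0.01. Protein domains were not analysed here.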

Additional observations from a re-analysis of the deposited data

How the results depend on the processing

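The 25 falls among Zfp genes numbered 22 to 23 with a set left out, 22 on the Cy5 and 17 on the Cy3 arrays alone, 20 at an adjusted p under 0.01 and 27 with the 6 arrays as separate replicates. The 2 falls among Zbtb and Hivep genes stayed at 2 except on the Cy5 arrays alone (3). Leaving out a set in turn gave 3 to 6 rises among Zfp genes, 1 to 4 among Zbtb and Hivep genes and 2 falls there, 499 to 832 calls over all genes, a difference of medians (Zfp minus Zbtb and Hivep, -0.16 with all sets) of -0.23 to -0.15, and 0 to 24 dye effects. The lowest counts of rises (3 and 1) and of all calls (499) came without set 1. With the 6 arrays as separate replicates, a common dye term and no replicate block, 35 of the 37 calls remained, with 1439 calls over all genes and 9 rises among Zfp genes. On the Cy5 arrays alone 2 Zbtb and Hivep genes rose, the difference of medians was -0.23, and Trim28 turned to 0.056. On the Cy3 arrays alone there were 649 calls over all genes, the difference was -0.13, and Zfp97 and Zfp612 turned to 0.14 each. The Zfp median, -0.10 with both orientations, was -0.14 on the Cy5 arrays alone and -0.04 on the Cy3 arrays alone. These orientations kept 28 (Cy5) and 26 (Cy3) of the 37 calls. At an adjusted p under 0.01 there were 538 calls over all genes and 2 rises among Zfp genes. Dye effects numbered 2 with zeros kept as ratios. Median centring kept all 37 calls, quantile normalization 35, incomplete probes 36 and zeros as ratios 32. The causes were not tested. The alternative by KRAB domain was not run. Averaging arrays that share a number, a pairing that the values do not show, leaves 3 averages. This limits what small changes can be seen.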

Other observations

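Zinc finger genes with symbols from Zkscan, Zscan, Zik, Zxd or Znf, of which 8 of 10 were tested, held 2 that fell and 1 that rose, with a median of -0.06, against -0.01 for all genes tested, of which 6.21% fell and 6.96% rose. Zik1 was at -0.62, -0.83 and -0.59 with treated RNA in Cy5 and at -0.28, -0.17 and -0.40 with treated RNA in Cy3, and fell by 0.48 ± 0.03 (limma, adjusted p = 0.000846). Zscan12 fell by 0.22 ± 0.03 and Zkscan6 rose by 0.22 ± 0.03. All 3 kept their sign on every array.

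BTB (POZ) proteins without zinc fingers, many of which serve as adaptors of cullin ubiquitin ligases, had a median of -0.02. Of 23 such genes 18 were tested, with 1 rise, Kctd16 at 0.29 ± 0.08, and 1 fall, Klhl22 at -0.28 ± 0.05, shares close to those of all genes. These genes were named after their values were seen.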
